A study of Mus musculus with 27 samples.

Results

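Hepatocyte DNA methylation was compared between the inbred mouse strains A/J and C57BL/6J. All mice were females aged 12 weeks, untreated as far as the labels say, and each strain had 3 samples, so 6 of the 27 samples of the 9-strain study were used. The A/J samples carry replicate numbers 1, 2 and 3, and the C57BL/6J samples carry 1, 2 and 4. The study set out to relate genetic differences between strains to epigenetic marks in liver cells, and its methylation part used reduced representation bisulfite sequencing (RRBS), which cuts DNA at CCGG sites and reads the CpG-rich fragments. The labels call the samples of a strain biological replicates, and the p-values measure the spread between them.

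Cytosines followed by guanine (CpGs) can carry a methyl group that DNA methyltransferases copy when DNA is replicated. CpG-rich gene starts are usually unmethylated in liver, most other CpGs are methylated, and regulatory regions and imprinted genes hold levels in between. A/J and C57BL/6J are classical laboratory strains that differ at many sequence variants. C57BL/6J is the strain of the reference genome, and A/J is known for its resistance to diet-induced obesity and diabetes.

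RRBS read at least 6 cytosines in the promoters of 10 called starts, all with the higher mean level in A/J, and the 5 with the widest difference over those cytosines are shown, chosen after their values were seen. The other 5, of Vamp9, Vmn2r29, Alpk3, Rsph3b and Pafah2, were 25.8 to 16.4 points higher in A/J, and 1 read cytosine of Vmn2r29 was 40.1 points higher in C57BL/6J. Printed are the 250 bases before the start, 5′ to 3′ on the strand of the gene, from RefSeq (GRCm38.p6). Capitals mark the cytosines read in all 6 samples: a capital C is a cytosine of the printed strand, and a capital G stands opposite a cytosine of the other strand.
Isoc2b, chr7:4866180-4866429, minus strand: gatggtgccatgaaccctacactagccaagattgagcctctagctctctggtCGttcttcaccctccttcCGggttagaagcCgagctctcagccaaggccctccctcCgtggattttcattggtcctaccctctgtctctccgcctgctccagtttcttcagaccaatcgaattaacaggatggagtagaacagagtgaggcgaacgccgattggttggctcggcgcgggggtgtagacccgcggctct
Osbpl5, chr7:143740361-143740610, minus strand: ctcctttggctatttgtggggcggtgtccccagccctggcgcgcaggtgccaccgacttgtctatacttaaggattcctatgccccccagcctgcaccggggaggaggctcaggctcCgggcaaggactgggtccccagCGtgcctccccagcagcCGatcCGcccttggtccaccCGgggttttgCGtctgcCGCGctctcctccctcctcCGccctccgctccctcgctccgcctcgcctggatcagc
Phldb2, chr16:45844379-45844628, minus strand: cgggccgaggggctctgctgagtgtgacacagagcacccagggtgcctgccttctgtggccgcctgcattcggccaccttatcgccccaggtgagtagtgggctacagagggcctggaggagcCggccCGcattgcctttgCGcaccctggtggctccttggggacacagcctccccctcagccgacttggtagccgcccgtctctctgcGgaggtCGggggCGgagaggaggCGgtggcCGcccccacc
Papolb, chr5:142530077-142530326, minus strand: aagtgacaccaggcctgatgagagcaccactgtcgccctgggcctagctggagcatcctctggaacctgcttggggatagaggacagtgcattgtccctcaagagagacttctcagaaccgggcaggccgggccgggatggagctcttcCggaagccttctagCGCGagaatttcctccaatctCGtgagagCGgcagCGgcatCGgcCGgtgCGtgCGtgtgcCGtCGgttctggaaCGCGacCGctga
Tsc22d1, chr14:76488186-76488435, plus strand: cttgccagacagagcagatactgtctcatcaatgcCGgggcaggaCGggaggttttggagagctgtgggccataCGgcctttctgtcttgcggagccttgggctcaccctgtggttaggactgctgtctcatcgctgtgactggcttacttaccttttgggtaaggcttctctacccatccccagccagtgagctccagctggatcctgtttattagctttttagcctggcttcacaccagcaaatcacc

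In the Isoc2b promoter, 6 cytosines were read, and their mean level was 33.8%, 64.9% and 56.7% in the A/J samples and 0% in each C57BL/6J sample. All 6 were at least 25 percentage points higher in A/J. At those -142, -168 and -180 bp from the start, each A/J sample was at exactly 50 or 100%, values that few reads can give, and depth is unknown. In the Osbpl5 promoter, 17 cytosines averaged 56.9%, 41.1% and 54.5% in A/J against 13.1%, 20.9% and 10.8% in C57BL/6J, and 13 of them differed by at least 25 points. The Phldb2 promoter averaged 39.5% in A/J and 12.1% in C57BL/6J over 14 cytosines. The Papolb promoter averaged 63.2% and 35.7% over 29 cytosines, 18 of which were at least 25 points higher in A/J. The Tsc22d1 promoter averaged 73.2% and 36.8% over 6. The motif CCGG, which reads the same on both strands, occurs 1 time in the Isoc2b promoter, 3 times in that of Osbpl5, 1 time in that of Phldb2, 5 times in that of Papolb and 1 time in that of Tsc22d1. It is found in 47.1% of the 32851 promoters of this length in the table.

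The samples listed between 2916034 and 3072877 positions each. Of 3831460 positions listed in at least 1 of the 6, 2326594 (60.7%) were listed in all 6, and 2325819 of these were used. Read counts per position are not used here, so the depth behind each percentage is unknown. The mitochondrion is called M in the C57BL/6J files but MT in those of A/J. Within the promoter windows of the RefSeq table, 99.97% of the shared positions lay on a CpG of the reference sequence. The share differed for positions listed in 1 strain only: 1167 of 3659 such A/J positions (31.9%) did not lie on a reference CpG, against 8 of 3298 (0.243%) for C57BL/6J. How the authors aligned each strain, and so its part in any difference below, cannot be told apart from strain.

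The mean methylation level was slightly higher in A/J. It was 38.4%, 38.3% and 38.3% in the A/J samples and 37.3%, 37.5% and 37.4% in the C57BL/6J samples, without overlap. The strain means were 38.3% ± 0.0521 (SD, n = 3) and 37.4% ± 0.126 (SD, n = 3), a difference of 0.953 points (exact permutation test, two-sided, p = 0.1, the smallest that 3 against 3 samples allow). Of 3 classes of positions, the intermediate one had the largest gap. Over 267621 positions with a mean between 20 and 80%, A/J averaged 58.6% ± 0.411 (SD, n = 3) and C57BL/6J 53.5% ± 1.13 (SD, n = 3), 5.13 points apart and again without overlap (exact p = 0.1). Over 1299423 positions under 20% the means were 2.01% and 1.5% (exact p = 0.1). Over 758775 positions above 80% they were 93.4% and 93.1%, and the samples of the strains overlapped (exact p = 0.2). On the X chromosome the levels were 56.2% ± 0.236 in A/J and 55.3% ± 0.181 in C57BL/6J (SD, n = 3 each), 0.969 points apart, close to the 0.953 points of the autosomes.

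The shares of extreme values moved as well. Positions at exactly 0% made up 45.7% ± 1.65 of those used in A/J and 49.8% ± 1.67 in C57BL/6J (SD, n = 3, exact p = 0.1). Positions at exactly 100% made up 18.2% and 20.7% (exact p = 0.3). Both extremes were thus more frequent on average in C57BL/6J, though for 100% the samples overlapped. Since few reads also give values of exactly 0 or 100%, and depth is unknown, its part in the difference was not tested.

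The genome was next divided into 1 kb tiles, and the mean of each tile with at least 5 shared positions was tested with limma. Calls needed a gap of at least 25 points between strain means and, after Benjamini-Hochberg adjustment, a p under 0.05. Of 78810 tiles tested, 431 were called (0.547%). A/J had the higher level in 324 of them (0.411% of those tested) and C57BL/6J in 107 (0.136%), a ratio of 3.03 and a share of 75.2% for A/J. In each of the 431 tiles, all 3 samples of one strain lay above all 3 of the other, which a call with 3 samples per strain nearly requires. The median difference was 34.8 points for tiles higher in A/J and 40.8 points for tiles higher in C57BL/6J. The number of calls rested on having all 6 samples. It was 95, 85 and 95 without A/J replicates 1, 2 and 3, and 175, 140 and 169 without C57BL/6J replicates 1, 2 and 4. The A/J share stayed between 65.1% and 71.6% in these fits.

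**Figure D1:**
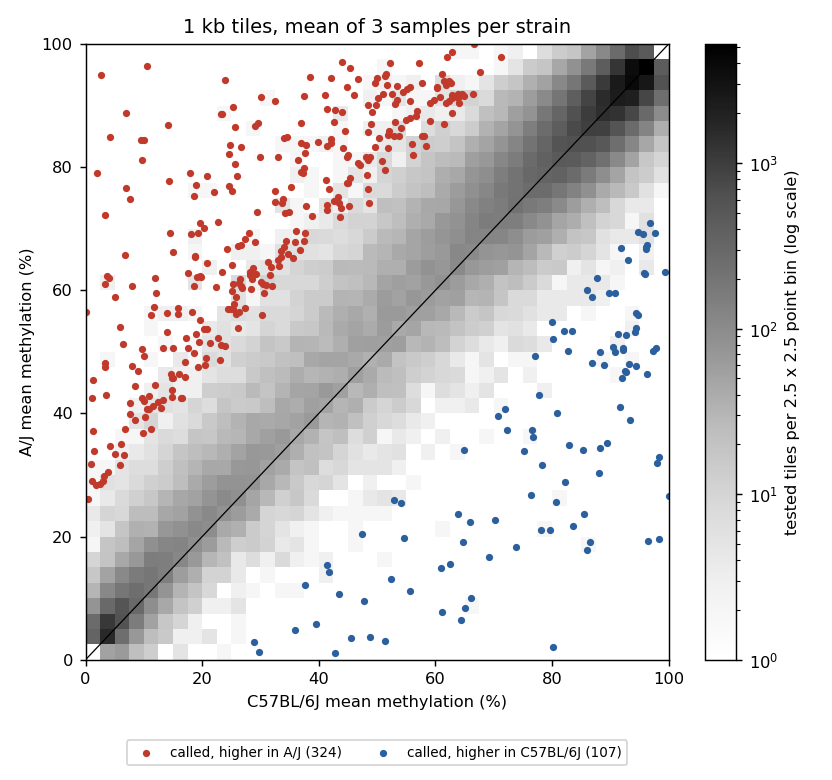
Mean methylation (%) of each tested 1 kb tile in C57BL/6J (x axis) and A/J (y axis), as grey bins of 2.5 by 2.5 points with a log scale for the number of tiles, and the called tiles as points (red, higher in A/J; blue, higher in C57BL/6J). The 324 red points lie mainly above the middle of the diagonal, while many of the 107 blue points lie near the right edge, where C57BL/6J was above 80%.

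The excess of widely differing tiles higher in A/J was also seen without the test. Among tiles that differed by at least 25 points whatever their p, 705 were higher in A/J and 221 in C57BL/6J (76.1% for A/J). Among called tiles with at least 50 points, the numbers were 55 and 26 (67.9%). Over all tested tiles, 60.3% had the higher mean in A/J and the median difference was 0.938 points. With each sample centred on its median, 52.1% of tiles were higher in A/J and the median difference was 0.189 points, while 411 tiles were called, 289 higher in A/J and 122 in C57BL/6J. In each of the 9 pairings of one A/J with one C57BL/6J sample, between 1641 and 2431 tiles were at least 25 points apart, and 66.8 to 74.4% of these were higher in the A/J sample. Pairs within a strain gave 740 to 835 such tiles in A/J and 1038 to 1487 in C57BL/6J, so the C57BL/6J samples varied more among themselves.

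All 19 autosomes had more called tiles higher in A/J than in C57BL/6J. The A/J share ran from 58.3% on chromosome 18 (7 of 12 tiles) to 93.3% on chromosome 12 (14 of 15). The share of tested tiles called ran from 0.225% on chromosome 15 to 0.813% on chromosome 7. On the X chromosome, 3 of 2675 tested tiles were called (0.112%), 2 of them higher in A/J. The calls were scattered: 331 of the 2575 windows of 1 Mb with a tested tile held at least 1. The most in a single window was 6 of 125 tested, on chromosome 4 between 137000001 and 138000000. The 5 higher in A/J lay at Hspg2, Usp48 and Alpl among others, and the tile at Rap1gap was higher in C57BL/6J.

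**Figure D2:**
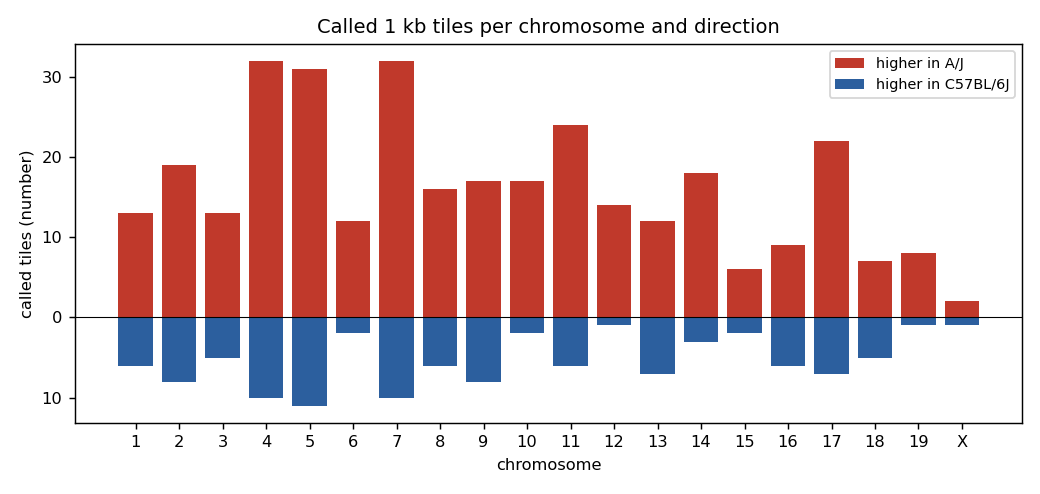
Number of called 1 kb tiles on each chromosome, with tiles higher in A/J above the axis and tiles higher in C57BL/6J below it. The red bar is the longer one on each of the 19 autosomes, and the X chromosome has 3 calls in all.

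Level classes described where the strains parted: low for a strain mean under 20%, intermediate for 20 to 80% and high for over 80%. Of the 324 tiles higher in A/J, 118 went from intermediate in C57BL/6J to high in A/J, 99 from low to intermediate, 99 were intermediate in both, and 8 went from low to high. Of the 107 tiles higher in C57BL/6J, 57 were high in C57BL/6J and intermediate in A/J, 25 were intermediate and low, 20 intermediate in both, and 5 high and low. The first of these classes made up 53.3% of the 107. The median level of the lower strain was 29.0% in tiles higher in A/J and 35.2% in tiles higher in C57BL/6J. That of the higher strain was 73.2% and 83.5%. Most calls, 403, had an intermediate mean over the 6 samples, where 2.14% of 18869 tested tiles were called.

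Calls were then counted by distance from genes. Starts here include both span ends of protein-coding genes without an entry in the promoter table, so some are not transcription starts. Of the 3551 tested tiles that held such a start, 27 were called (0.760%), 26 of them higher in A/J (96.3%). Of 24732 tested tiles over 50 kb from such a start, 110 were called (0.445%), 73 of them higher in A/J (66.4%). Of 8234 tested tiles with at least 20 shared positions, 61 were called (0.741%), 52 of them higher in A/J (85.2%). Of 48636 tested tiles with 5 to 9 positions, 240 were called (0.493%), 175 of them higher in A/J (72.9%). Protein-coding gene spans held 268 calls among 45681 tested tiles (0.587%), and 117 calls among 25742 tiles lay in no gene (0.455%).

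Single positions within the called tiles are given as a description, since the same positions chose the tiles. In 153 of the 324 tiles higher in A/J and in 49 of the 107 higher in C57BL/6J, every shared position differed by at least 10 points in the direction of the tile. Positions listed in 1 strain only occurred in 30.6% of tiles higher in A/J, in 41.1% of tiles higher in C57BL/6J and in 13.6% of all tested tiles. Without the tiles that hold such positions, 231 calls were made, 177 of them higher in A/J (76.6%). The part of strain sequence differences in the remaining calls was not tested.

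The widest differences reached from nearly unmethylated to nearly fully methylated. Called tiles of the same direction within 2 kb were joined, giving 309 regions higher in A/J and 102 higher in C57BL/6J. The widest lay on chromosome 17 from 80019001 to 80020000, outside genes and 9487 bp from the nearest, Hnrnpll, which encodes an RNA-binding regulator of splicing. The level was 96.5%, 95.0% and 93.5% in A/J and 2.87%, 3.18% and 1.67% in C57BL/6J over 21 positions, a difference of 92.4 points (limma, adjusted p = 0.000482). All 21 positions differed the same way, and 5 of them were at 0% in every C57BL/6J sample.

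Some further regions higher in A/J lay inside genes, as did most tested tiles (25742 of 78810 lay in no gene). A tile in Pemt, on chromosome 11 from 59991001 to 59992000, is in the gene of the liver enzyme that makes phosphatidylcholine from phosphatidylethanolamine. It was at 82.4%, 87.2% and 83.9% in A/J and between 7.94% and 12.4% in the C57BL/6J samples (limma, adjusted p = 0.00201). The nearest protein-coding start or span end was 26057 bp away. A tile in Ldlrad3, a membrane protein of the LDL receptor class A domain kind, was at 96.4% ± 0.906 in A/J and 10.5% ± 4.88 in C57BL/6J (SD, n = 3). A tile in Coro2b, an actin-binding coronin, was at 78.1 to 95.1% and 4.69 to 11.6%. One in Pi4k2a, a phosphatidylinositol 4-kinase, was at 82.8 to 86.5% and 1.85 to 6.75%.

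Regions were named only if the samples of the strains did not overlap. The other 7 of the 12 widest are given here. The tiles of Syne4 (79.1% in A/J, 1.97% in C57BL/6J), Gm28455 (84.5% and 9.55%) and Zfp872 (81.1% and 9.66%) held gene starts. Syne4 encodes a nuclear envelope protein, and Zfp872 is a zinc finger gene. The 10 positions of the Syne4 tile, which also overlaps Alkbh6, lay at -815 to -723 bp from the Syne4 start. Over the 16 positions within 1 kb of its start, Zfp872 was at 88.8% in A/J and 54.0% in C57BL/6J. Other regions lay in Slc30a7 (94.2% and 23.9%), a zinc transporter gene, and in Man1c1 (76.6% and 6.94%), which encodes a Golgi mannosidase. The last lay near Wnt8b (86.8% and 14.2%), a Wnt ligand gene, and near Tubg1 (72.3% and 3.33%), the gene of gamma-tubulin.

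Regions higher in C57BL/6J included a cytochrome P450 gene. A tile in Cyp2c39, on chromosome 19 from 39480001 to 39481000, was at 20%, 18% and 20% in A/J and 96%, 96% and 97.1% in C57BL/6J (limma, adjusted p = 0.000791). Of its 5 positions, 4 were at 0% in all A/J samples and at 50% or more in C57BL/6J. The widest of this direction lay in the long noncoding RNA gene Gm35198 on chromosome 11 from 93978001 to 93979000, at 15.3%, 27.1% and 16.7% in A/J and 100%, 96.0% and 98.9% in C57BL/6J. That tile also held 8 positions listed in C57BL/6J only. A tile in the noncoding gene Gm24463 was at 2.12% ± 1.07 in A/J and 80.1% ± 10.9 in C57BL/6J (SD, n = 3).

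A tile in Samd4, an RNA-binding translational repressor, was at 19.1% ± 7.59 in A/J and 86.6% ± 3.60 in C57BL/6J (SD, n = 3) over 14 positions. One near Hecw2, a ubiquitin ligase gene, was at 14.0 to 25.3% and 82.3 to 87.9% over 11 positions. The remaining regions lay near Ell3 (26.7% in A/J, 100% in C57BL/6J), in Gm12859 (32.0% and 98.1%), A830018L16Rik (33.0% and 98.4%), Rfx1 (23.6% and 85.5%) and Xxylt1 (21.0% and 79.7%), and near Gm8863 (21.7% and 83.6%) and Gm40880 (6.51% and 64.4%). The tile near Gm40880 held 67 positions listed in C57BL/6J only, and the one in Gm12859 held 10. Among the 12 widest regions per direction, calls were lost under other settings with all 6 samples kept at Gm8863 and Gm40880 (4 settings each), Rfx1 (3), Slc30a7 and Man1c1 (2 each).

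**Figure D3:**
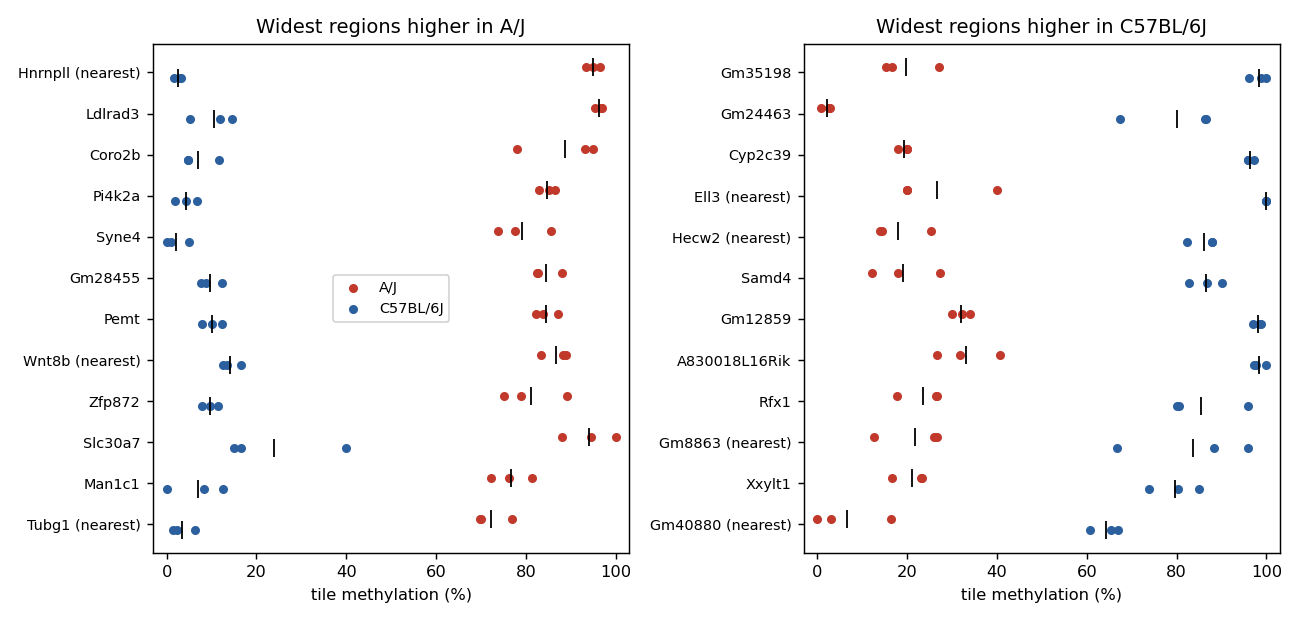
Methylation (%) of the tile with the largest difference in each of the 12 widest regions per direction, with 1 point per sample (red, A/J; blue, C57BL/6J) and a black bar at the strain mean. Regions were chosen among those whose samples do not overlap, and the tile near Hnrnpll shows the widest gap, 92.4 points.

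Few regions spanned several tiles, 14 in A/J and 5 in C57BL/6J. The longest, with 3 called tiles, lay in Wnt5a, a secreted Wnt ligand gene, on chromosome 14 from 28509001 to 28512000. Its tiles averaged 70.9%, 86.7% and 61.9% in A/J and 19.6%, 29.1% and 12.0% in C57BL/6J over 26, 14 and 34 positions. In its middle tile the A/J samples were at 84.4%, 80.4% and 95.3% and the C57BL/6J samples at 35.7%, 28.2% and 23.4% (limma, adjusted p = 0.019), and this tile lost its call in 4 of the other settings that kept all 6 samples. In the opposite direction no region exceeded 2 tiles. One with 2 lay in Pik3c3, the class III phosphatidylinositol 3-kinase gene of autophagy, where a tile of 16 positions was at 8.35% ± 2.93 in A/J and 65.0% ± 2.05 in C57BL/6J (SD, n = 3).

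Most called gene starts were higher in A/J. The mean within 1 kb of a start of a protein-coding gene was tested the same way. For genes without an entry in the promoter table, both ends of the gene span were used, since their strand was not known. Such ends made up 1685 of the 5599 tested and 10 of the 38 called, 9 of these higher in A/J, and are counted among the starts here. Of 5599 tested starts, 38 were called (0.679%), 34 higher in A/J (0.607%) and 4 higher in C57BL/6J (0.0714%). The A/J share was 89.5%. With one sample left out, 23 to 31 starts were called higher in A/J and 2 to 5 higher in C57BL/6J, the 2 without C57BL/6J replicate 2. With each sample centred on its own median it was 78.1%, with 25 starts higher in A/J and 7 in C57BL/6J. The median difference over all tested starts was 1.35 points, and -0.319 points with centring, which moved the median log2 ratio from 0.17 to -0.04.

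Among starts higher in A/J, that of Gm28455 was at 84.5% ± 3.20 in A/J and 9.55% ± 2.53 in C57BL/6J (SD, n = 3), over the same 19 positions as the tile above. The start of Isoc2b, which encodes an isochorismatase domain protein, was at 37.5%, 73.2% and 76.4% in A/J and 6.41%, 3.19% and 1.65% in C57BL/6J over 32 positions (limma, adjusted p = 0.0231). The A/J samples spread widely there, yet none reached down to the C57BL/6J samples. An end of the span of C1qtnf12, a gene for a secreted protein of the C1q and TNF family, was at 77.2%, 79.8% and 78.5% in A/J and 26.0%, 28.9% and 22.9% in C57BL/6J. Syne4 was at 71.1%, 72.4% and 73.7% against 19.2%, 21.7% and 19.8% (limma, adjusted p = 0.000382). The shared positions of Syne4 lay at -834 to -723 bp and at 800 to 913 bp from its start, and none lay nearer.

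The other 6 of the 10 widest starts were those of Sfn (62.2% in A/J, 19.1% in C57BL/6J), encoding 14-3-3 sigma, and of Vmn2r29 (72.8% and 30.8%), a vomeronasal receptor gene. They were followed by Rnase13 (76.7% and 35.2%), a ribonuclease A family gene, and Cdk17 (69.4% and 28.0%, an end of its span), a kinase gene. Pafah2 (92.5% and 52.2%) encodes a platelet-activating factor acetylhydrolase, and Tbcel (56.5% and 18.3%) a tubulin cofactor-like protein. The smallest adjusted p among these 6 was 0.00175 (limma), for Tbcel.

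Klhl33, a kelch-like gene, led the starts higher in C57BL/6J with 12.9%, 16% and 12.5% in A/J and 51.0%, 55.2% and 63.2% in C57BL/6J over 17 positions (limma, adjusted p = 0.0035). Trim72, a membrane repair gene best known in muscle, was at 42.6% ± 1.45 and 71.7% ± 4.25 (SD, n = 3). An end of Nedd4l, a ubiquitin ligase gene, was at 14.4% ± 5.29 and 41.9% ± 6.76, and the start of the zinc finger gene Zfp180 at 6.46% ± 1.61 and 31.6% ± 2.21 (SD, n = 3).

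At some starts C57BL/6J was close to 0. Ndufc2, a subunit of respiratory complex I, was at 40.5%, 36.8% and 34.0% in A/J and 0.366%, 1.32% and 2.25% in C57BL/6J. Vcpkmt, the methyltransferase of the ATPase VCP, was at 27.3%, 25.9% and 24.8% in A/J and 0.692%, 0.244% and 0.526% in C57BL/6J over 66 positions. An end of Rarres2, the gene of the secreted protein chemerin, was at 36.2% ± 4.21 in A/J and 1.68% ± 1.22 in C57BL/6J (SD, n = 3). These 3 were chosen after their values were seen. Among the called starts named here, other settings with all 6 samples kept took the call from Papolb in 2 and from Isoc2b, Tsc22d1, Alpk3, Vcpkmt and Trim72 in 1 each.

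**Figure D4:**
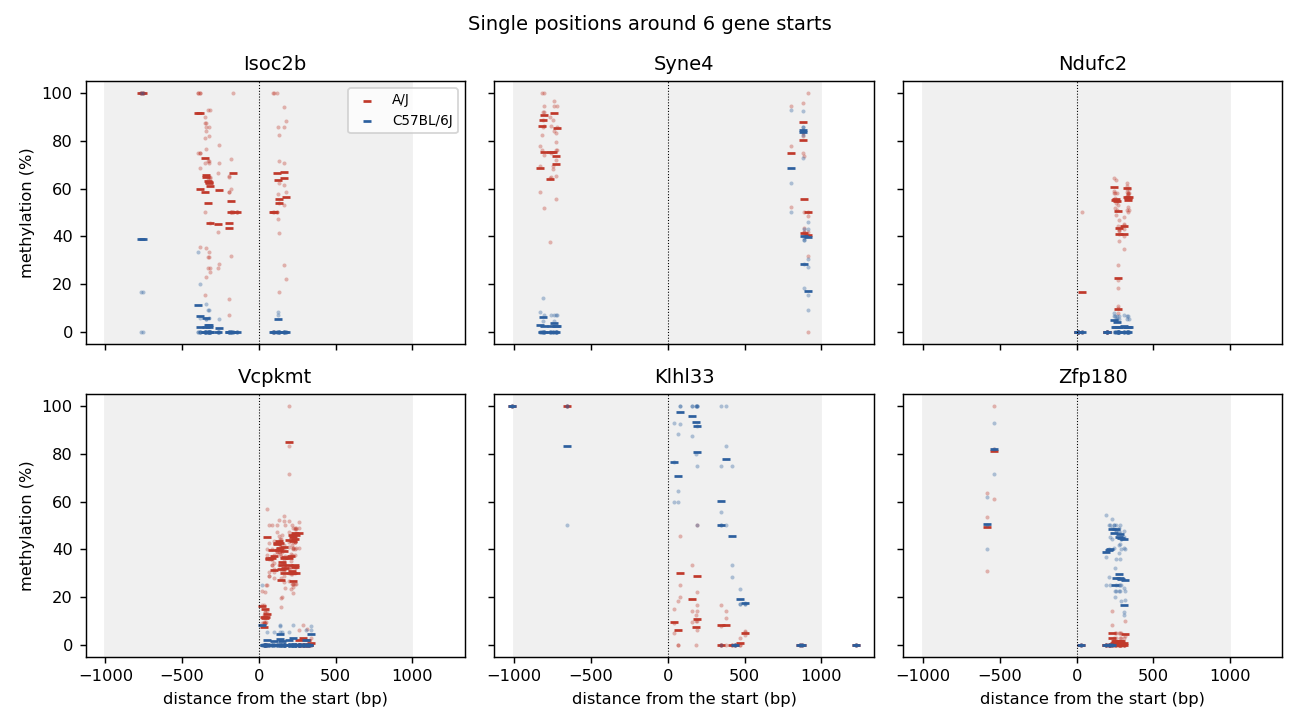
Methylation (%) of single positions by distance (bp) from 6 gene starts, with faint points for the 6 samples and dashes for the strain means (red, A/J; blue, C57BL/6J), and the tested window shaded. The A/J dashes lie above those of C57BL/6J at most positions of Isoc2b, Ndufc2 and Vcpkmt and before the start of Syne4, and the order is turned after the starts of Klhl33 and Zfp180.

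Of 122 distinct starts and span ends tested in 12 gene lists of liver function, imprinting, development and the clock, 1 was called, near the 0.679% of all tested. It was a span end of Abcc3, an efflux transporter of bile acids and conjugates, of the list of conjugation enzymes and transporters (6 tested), and which end holds the start was not known. It was at 81.7%, 70.0% and 75.5% in A/J and 38.1%, 47.8% and 48.6% in C57BL/6J (limma, adjusted p = 0.0236). The other end, read at 16 positions, was at 0.588% and 0.288%. Over all tested starts, 24.3% had an unadjusted p under 0.05, 21.4% with the higher level in A/J and 2.91% with the higher level in C57BL/6J. With samples centred, 946 starts passed this threshold in place of 1362, and 458 of them were higher in A/J in place of 1199, which is 48.4% in place of 88.0%. The list of homeobox, Pax and Sox genes reached 14 of 39 tested starts (35.9%), all 14 higher in A/J, with a median difference of 1.79 points against 1.35 for all starts. With samples centred, 0 of the 39 passed (limma, unadjusted p under 0.05), and the median was 0.554 points against -0.319. The imprinted genes, known for methylation of one parental copy, reached 2 of 24 (8.33%), both higher in A/J, with a median of 2.19 points. Centred, they reached 4, none of them higher in A/J, with a median of -0.737 points. Their median level over the 28 starts read was 36.2% in A/J and 32.3% in C57BL/6J.

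At the same threshold and without centring, hepatocyte transcription factors reached 2 of 6 tested starts, nuclear receptors and metabolic regulators 2 of 5, cytochrome P450 genes 2 of 4 and conjugation genes 3 of 6. Lipid and cholesterol genes reached 2 of 12, glucose and insulin genes 2 of 6 and the DNA methylation machinery 3 of 11. The lists of complement and acute phase (5 tested), strain-variable genes (4) and circadian clock genes (2) had none. With samples centred, hepatocyte transcription factors reached 1, nuclear receptors 2, conjugation genes 2 and the DNA methylation machinery 3. Cytochrome P450, lipid and complement genes then reached 0, glucose and insulin genes 2 with neither higher in A/J, and strain-variable and clock genes 1 each, higher in C57BL/6J. At the start of Nr5a2, a nuclear receptor that regulates bile acid synthesis, A/J was at 40.4%, 46.7% and 43.8% and C57BL/6J at 17.3%, 18.7% and 23.5% (limma, adjusted p = 0.0113), a difference of 23.8 points that falls just under the required 25. A second start of Dnmt3a, a de novo DNA methyltransferase, was at 12.0% ± 2.27 in A/J and 2.25% ± 1.73 in C57BL/6J (SD, n = 3; limma, adjusted p = 0.0283, and 0.0531 with samples centred), and another start, read at 343 positions, was at 0.476% and 0.326%. In the same list an end of Mbd2, a reader of methylated DNA, was at 21.4%, 64.3% and 42.9% in A/J and 57.1%, 85.7% and 95.2% in C57BL/6J, with overlapping samples (limma, adjusted p = 0.187).

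Called tiles also lay in the spans of 10 of the 311 list or marker genes with a tested tile (3.22%), against 259 of 12847 protein-coding genes (2.02%). The tiles of 9 of the 10 were higher in A/J. Nr5a2 had one at its start (37.5% in A/J, 11.1% in C57BL/6J). Gata6, a transcription factor of early liver development, had 2, the first at 38.3%, 41.2% and 38.8% in A/J and 10.6%, 9.21% and 10.9% in C57BL/6J over 210 positions (limma, adjusted p = 0.0106). Tbx3, a transcription factor of hepatoblasts, had one at 91.8% and 64.5% over 7 positions. The Tbx3 start inside it, tested over 26 positions, was at 61.7% and 49.0% and was not called (limma, adjusted p = 0.162). Another Tbx3 start, read at 115 positions, was at 0.882% and 0.605%. The nuclear receptor genes had 3 called tiles: Nr1h4, the bile acid receptor, with 85.1% and 52.8%, Rxra with 45.8% and 14.8%, and Rxrb with 81.9% and 56.2%. The others were C3 (52.2% and 22.8%), the central complement component, Nlrp12 (83.5% and 58.4%), an innate immune receptor gene, and Ass1 (73.1% and 41.4%), a urea cycle enzyme gene. In Pdgfrb, a stellate cell marker, a tile was higher in C57BL/6J (15.4% in A/J, 41.4% in C57BL/6J). With all 6 samples kept, each of these tiles lost its call in 1 to 8 of the other settings tried: in 8 for Nr5a2, in 7 for Rxrb, in 6 each for Nr1h4, Rxra, Nlrp12 and Pdgfrb, in 5 each for C3 and Ass1, in 1 and 4 for the first and second Gata6 tiles and in 2 for Tbx3. None of them turned direction, but many of these settings leave the strain means unchanged and so could not turn it.

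The labelled cell type was set against marker genes. The median over 12 starts of hepatocyte markers was 7.39% in A/J and 5.94% in C57BL/6J, above the 1.40% and 1.10% of all 15848 starts with at least 5 positions. The medians were 90.2% and 83.4% for Kupffer cell markers (3 starts), 64.4% and 75.3% for endothelial (5), 14.6% and 10.8% for lymphocyte (7), 9.21% and 8.76% for cholangiocyte (8) and 2.74% and 3.66% for stellate cell and fibroblast markers (7). The stellate cell and fibroblast median was thus below that of the hepatocyte markers. No marker start was called. Of the 29 marker starts tested, 5 had an unadjusted p under 0.05 (17.2%, against 24.3% of all tested starts), 3 of them higher in A/J. With samples centred there were 6 (20.7%, against 16.9%), 1 of them higher in A/J. A difference in cell makeup between the strains was not tested beyond these values.

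Single positions gave another balance. Of 1032691 positions tested, 300 were called (0.0291%), 124 higher in A/J (0.012%) and 176 in C57BL/6J (0.017%), so that A/J had 41.3% of the calls. The direction depended on the fit. With percentages left untransformed, 1522 were called, 946 higher in A/J, and with all 27 samples in the fit, over positions they share, 4197 were called, 3257 higher in A/J. Without C57BL/6J replicate 1, 2 or 4, A/J was higher in 143 of 248, 203 of 324 and 164 of 273. Without A/J replicate 1, 2 or 3, it was higher in 116 of 275, 125 of 280 and 108 of 246. The majority thus turned to A/J whenever a C57BL/6J sample was left out.

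The called positions of the directions also differed in their surroundings. Of the 176 higher in C57BL/6J, 129 were at 0% in all A/J samples, and of the 124 higher in A/J, 87 were at 0% in all C57BL/6J samples. Shared positions within 100 bp existed for 135 and 85 of them. These neighbours averaged at least 25 points in the same direction for 44 of the 135 positions higher in C57BL/6J and for 64 of the 85 higher in A/J. The median neighbour difference was -2.78 points around the former, where the sign would be negative for C57BL/6J, and 64.1 points around the latter. A cytosine that is a thymine in one strain also reads as unmethylated after bisulfite treatment, and its part at these positions was not tested.

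Some positions were listed in 1 strain only. All 3 A/J samples and no C57BL/6J sample listed 87278 positions (3.35% of those in all 3 A/J samples), and 99649 (3.87%) were listed the other way round. Their levels were 67.5% and 70.5%. Positions of C57BL/6J only gathered on chromosome 12, where the window from 19700001 to 19800000 near Gm40880 had 207 against 9 shared positions, and on chromosome 17 from 36100001 to 36200000, which holds major histocompatibility genes such as H2-T3, with 197 against 55. Positions of A/J only were less gathered, with at most 93 per window of 0.1 Mb.

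The other 7 strains were then read at the called tiles, as a description. At tiles higher in A/J, the share of tiles where a strain's mean lay nearer to A/J ran from 44.1% for WSB/EiJ to 61.2% for PWK/PhJ. At tiles higher in C57BL/6J it ran from 40.7% for CAST/EiJ to 68.0% for DBA/2J. Of the 249 tiles higher in A/J with all 7 strains measured, A/J stood alone in 14, all 7 strains being nearer C57BL/6J, and C57BL/6J stood alone in 15. Of the 70 tiles higher in C57BL/6J, A/J stood alone in 6 and C57BL/6J in 5, counted the same way. The remaining tiles had other strains on both sides.

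**Figure D5:**
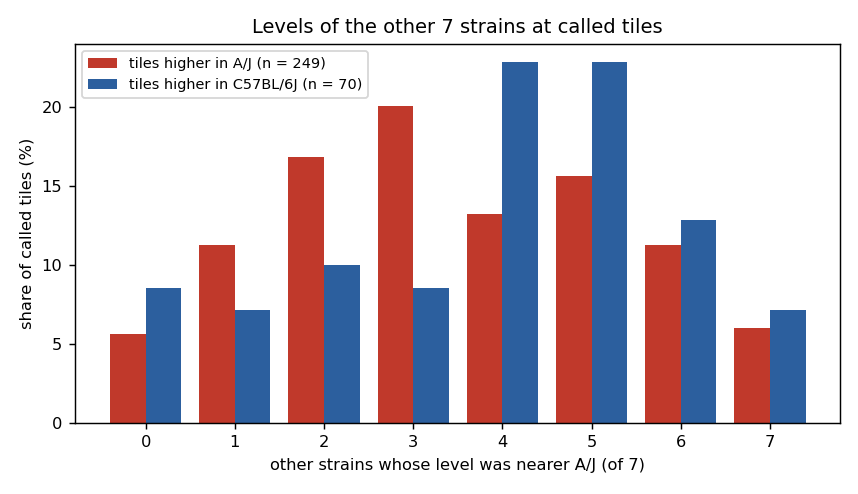
Share (%) of called tiles by the number of the other 7 strains whose mean level was nearer A/J than C57BL/6J, for tiles higher in A/J (red, n = 249) and in C57BL/6J (blue, n = 70) with all 7 measured. Tiles higher in A/J peak at 3 strains (20.1%), and tiles higher in C57BL/6J at 4 and 5 strains (22.9% each).

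Named tiles showed this spread. The tile near Hnrnpll was at 97.4% in WSB/EiJ, above the A/J mean, at 35.6% in CAST/EiJ and between 0 and 7.32% in 129S1/SvImJ, DBA/2J, NOD/ShiLtJ and PWK/PhJ. The tile that holds the start of Syne4 was at 83.4% in CAST/EiJ and 77.7% in DBA/2J, and 9.27% was the highest of the other 5 strains. In Pemt, NOD/ShiLtJ (83.9%), CAST/EiJ (75.7%) and PWK/PhJ (66.7%) were nearer A/J. In Pi4k2a all 6 measured strains were at 70.4% or more, so C57BL/6J was the low strain. In Samd4 all 7 were nearer A/J, from 8.50% in DBA/2J to 52.1% in PWK/PhJ.

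In 1 fit of all 27 samples over the 43644 tiles testable in it, A/J was higher than C57BL/6J in 372 of 467 called tiles (79.7%). The other 7 strains, set against each of the pair, share its samples. Against A/J, 17.5% (DBA/2J) to 51.5% (PWK/PhJ) of called tiles were higher in the other strain. Against C57BL/6J, 48.9% (DBA/2J) to 74.5% (PWK/PhJ) were.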

How the data were processed

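Methylation of genomic DNA from hepatocytes was measured by RRBS, and 3 A/J and 3 C57BL/6J samples of the 27 were compared. The authors deposited, per sample, the percent methylation of each listed position, without read counts. The submitters' processing notes name Trim Galore 0.6.3, Bowtie2 and Bismark 0.22 and the builds GRCm38 and mm10. Any coverage filter is not given in the sources used here. Positions listed in all 6 samples were kept, leaving out a 5741 bp ribosomal stretch near 39.8 Mb of chromosome 17 and the mitochondrion, and averaged in 1 kb tiles and within 1 kb of gene starts (at least 5 positions). Features with a mean between 3 and 97% were tested with limma 3.58.1 (R 4.3.3) on log2((percent + 5)/(100 - percent + 5)), with Benjamini-Hochberg adjustment over all features of a kind. Of the tests, only the limma fit of tiles was tried on simulated data. Single values per sample were compared by exact permutation. Gene names came from RefSeq (GRCm38.p6). Named were the 12 widest regions and 10 widest starts per direction, called list members and the longest regions, and, chosen after their values were seen, starts near 0% in C57BL/6J, promoters with 6 or more read cytosines and the uncalled Nr5a2, Dnmt3a and Mbd2. Members and lists were chosen with earlier results of these data known. Replicate numbers 1 and 2 occur in both strains, but deviations of same-numbered samples correlated at 0.011 and 0.0025, so no pairing was used. Alternatives covered offset, filters, tile size, centring, strands and left-out samples.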

Additional observations from a re-analysis of the deposited data

Results flagged for a closer look

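The ribosomal stretch left out of the comparison, on chromosome 17 near 39.8 Mb, was higher in A/J. Over 745 positions it averaged 41.8%, 46.1% and 42.9% in the A/J samples and 15.4%, 20.6% and 16.8% in the C57BL/6J samples, a difference of 26.0 points without overlap (exact permutation test, two-sided, p = 0.1, the smallest possible). It stands here because it lies outside the main measurement. With the stretch kept, 437 tiles were called in place of 431.

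Each of the 6 files held positions assigned to Y, while the labels give every mouse as female. The number per sample ran from 790 to 1040, with a median of 884. Every sample of the other 7 strains held Y positions too, from 974 to 1686 each. The source of these positions was not tested.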

How the results depend on the processing

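Called tiles numbered 195 with an offset of 1 (140 higher in A/J, 55 in C57BL/6J), 284 with at least 10 positions (56 higher in C57BL/6J), 81 at 50 points or more (55 and 26), and 231 without tiles holding positions of 1 strain only (177 and 54). With strands averaged, 202 were higher in A/J. With the tile median, chosen after seeing the data, 268 were called, 178 of them higher in A/J. One sample left out gave 85 to 175 calls, 57 to 114 higher in A/J and 27 to 61 higher in C57BL/6J. A replicate block over replicates 1 and 2 gave 0 tiles in all and in each direction, and so did these 4 samples with no block. For gene starts the replicate block, added after seeing the data, gave 0, and one sample left out gave 26 to 33. At 10 points or more, 139 starts were called. Positions numbered 109 with an offset of 1, 1522 untransformed and 4197 with 27 samples, and 246 to 324 with one sample left out. The mean level difference ran from 0.898 to 1.02 points with one sample left out. A/J had 65.1% or more of the called tiles in each fit with calls. For 39 tiles of the regions and genes chosen for naming and 28 named starts, no alternative that kept their bounds turned the direction. Many could not turn it: offset, filters and minimum difference leave the strain means unchanged, and leaving out a sample cannot turn groups without overlap. A lower minimum difference also cannot take a call away, and such settings are counted in the shares that follow. In the planned fits other than left-out samples and the replicate pair, and with the tile median, 528 of 607 tile values kept their call and 127 of 135 start values kept their side of the threshold. The 11 tiles of list and marker genes took 56 of the 79 lost tile values. Those that leave out a sample kept 137 of 234 and 123 of 168. Causes were not tested. Depth is unknown, so its effect was not tested.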
